A study of Mus musculus with 2 samples.

Results

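The genes described here carry interferon signals from the cell surface to the nucleus. They are the 5 interferon regulatory factors Irf1, Irf2, Irf3, Irf7 and Irf9, the signal transducer Stat2, and the receptor chains Ifnar1, Ifnar2 and Ifngr1. They were chosen by name as a group of known function, with earlier results of these data known. All 9 were found among the 21983 gene entries of the count table. RNA came from the tumour cell line 14837, derived from pancreatic ductal adenocarcinoma (PDAC) of C57BL/6 mice and grown in DMEM with 10% serum and 100 U/ml penicillin. These cells had spent 48 h in medium taken from cultures of cancer-associated fibroblasts (CAFs), which make up much of the stroma around such tumours. The labels also describe a library from cells kept in medium of 14837 cells, but no column of the table carries a name that matches it, so that library was not analysed here and the media were not compared. All values are therefore levels within 1 library of CAF-medium cells, and they do not show what the medium altered.

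Type I interferons bind a receptor made of IFNAR1 and IFNAR2, and type II interferon binds one made of IFNGR1 and IFNGR2. Janus kinases on the receptor tails then phosphorylate STAT proteins. STAT2 takes part with IRF9 in a complex called ISGF3, which binds the interferon-stimulated response element (ISRE), whereas STAT dimers without IRF9 bind the gamma-activated sequence (GAS). IRF3 and IRF7 act upstream, where they switch on the interferon genes, and IRF1, IRF7, IRF9 and STAT2 are themselves known as products of interferon-stimulated genes.

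The library held 21269197 counts, and 11569 entries had at least 10 counts. Levels are given as counts per 1000000 counts (CPM) and as CPM per kilobase of all annotated exons (CPM per kb), since a longer gene collects more counts. The median gene among 11567 with at least 10 counts stood at 37.9 CPM and 8.14 CPM per kb. Brackets give exact Poisson 95% intervals, which cover counting error only, because there was no second culture. Keratins Krt18, Krt8, Krt7 and Krt19 and the adhesion gene Cdh1 are known from epithelial cells and ran from 370 to 1819 CPM, but the epithelial markers Epcam and Cldn4 had 2 and 0 counts. Of 10 immune cell markers, 6 were listed at 0, the pan-leukocyte gene Ptprc had 1 count, and the list summed to 5.83 CPM, of which the macrophage marker Cd68 gave 5.69 CPM with 121 counts. The 10 fibroblast markers summed to 37 CPM, of which Pdgfra gave 34.2 CPM, with Col1a2, Col3a1, Dcn, Lum and Pdpn at 0. The 5 endothelial markers summed to 0.423 CPM. In bulk RNA, fewer cells of a type and less RNA per cell cannot be told apart. A listing at 0 is not read as absence here, for a reason given below with the other IRFs.

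All 9 genes had at least 10 counts, from 497 for Ifnar2 to 3410 for Irf7, and together they held 15391 counts, or 0.0724% of the library. Their median was 65.2 CPM and 12.2 CPM per kb, and 7 of the 9 exceeded the median gene on each of these scales. That number rests on which genes enter the median. Among genes with at least 100 counts, 5 members exceeded it in CPM and 6 in CPM per kb, and with no minimum all 9 did on both scales. In CPM the 2 below were Ifnar2 and Irf3, whereas in CPM per kb they were Ifnar2 and Irf2. The highest per kilobase was Irf7 and the lowest Irf2, 6.43 times apart. With the longest protein-coding transcript as the length, the lowest was Ifnar2 and the range was 9.35 times. From the top, the order Irf7, Irf9, Ifngr1, Stat2 and Irf1 was the same under all 3 lengths tried, while the lower 4 changed places, and the plot of member levels shows it for 2 of these lengths. Per kilobase of all exons, Ifnar2 and Irf2 were the only neighbours in the order whose ratio had an interval holding 1 (1.06, 0.953 to 1.18).

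**Figure D1:**
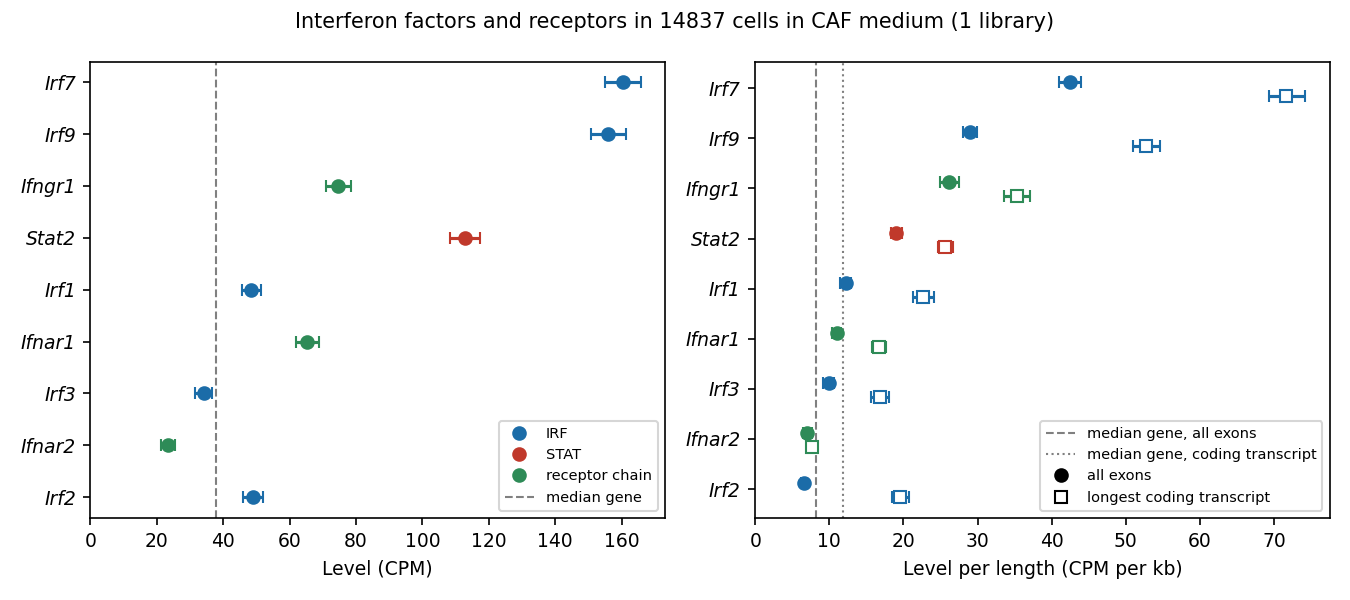
Levels of the 9 genes in 1 library of 14837 cells in CAF medium, in CPM on the left and per kilobase on the right, with exact Poisson 95% intervals. Filled points use all exons, open squares the longest protein-coding transcript, and lines mark the median gene. Irf7 and Irf9 stand highest per kilobase at 42.5 and 29 CPM per kb of all exons.

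Because several of these genes are known targets of the pathway they serve, the stretches upstream of their start sites were read for the letters of the pathway's own DNA elements. The windows are those of RefSeq on build GRCm38.p6 and run from 250 bases before to 50 after each RefSeq start. These starts can differ from the gene positions given below, which come from another annotation, GENCODE. They were searched on both strands for the ISRE core, GAAA and GAAA with any 2 bases between, and for the GAS core, TTC and GAA with any 3 bases between. All 9 genes had a window, and Irf1 and Irf9 had 2 each. ISRE letters lay in the windows of Irf2 and Stat2, 2 of 9 genes, against 3.99% of 27025 genes with a window of that length. GAS letters lay in those of Irf1, Irf2, Ifnar1 and Ifnar2, 4 of 9, against 9.55% of genes. No match of one motif overlapped a match of the other. Among 16 interferon-stimulated effector genes with a window, 11 held ISRE letters and 5 GAS letters. The windows of Irf3, Irf7, Irf9 and Ifngr1 held neither. Both Irf9 windows, from 55603735 and 55604329, begin inside the GENCODE gene, whose first base is 55603571. No base before that gene was searched, so the result cannot speak for the stretch upstream of it. Of 250 upstream bases, 250 and 88 in the 2 Irf9 windows lie in Irf9 exons. For Irf7, 57 lie in its own exons, and for Irf3, 181 lie in exons of Bcl2l12. A match describes letters and not binding, and no test of these shares was made. The 4 genes with a match wholly upstream of the RefSeq start are shown 5′ to 3′ on the plus strand. Matched letters are in capitals, and each stretch runs up to that start or the first exon base of a protein-coding gene.
Stat2: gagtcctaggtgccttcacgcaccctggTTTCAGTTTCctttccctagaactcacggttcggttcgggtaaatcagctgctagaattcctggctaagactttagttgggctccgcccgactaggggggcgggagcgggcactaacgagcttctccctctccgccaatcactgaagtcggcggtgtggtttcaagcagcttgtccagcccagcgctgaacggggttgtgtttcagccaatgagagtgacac
Irf1: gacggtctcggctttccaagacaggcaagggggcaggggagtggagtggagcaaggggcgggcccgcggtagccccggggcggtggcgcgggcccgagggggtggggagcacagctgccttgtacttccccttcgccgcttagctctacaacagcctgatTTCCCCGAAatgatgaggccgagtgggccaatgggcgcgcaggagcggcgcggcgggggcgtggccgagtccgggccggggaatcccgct
Irf2: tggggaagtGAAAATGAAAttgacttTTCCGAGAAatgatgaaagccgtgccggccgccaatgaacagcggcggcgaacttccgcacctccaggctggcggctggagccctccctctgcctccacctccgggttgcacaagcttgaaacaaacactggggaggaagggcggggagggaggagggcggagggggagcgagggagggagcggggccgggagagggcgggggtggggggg
Ifnar2: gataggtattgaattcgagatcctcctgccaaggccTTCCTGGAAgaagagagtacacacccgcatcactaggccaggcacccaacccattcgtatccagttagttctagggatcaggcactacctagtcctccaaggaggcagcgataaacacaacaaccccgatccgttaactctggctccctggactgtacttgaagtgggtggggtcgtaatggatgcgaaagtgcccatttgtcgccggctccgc
The Stat2 stretch is chr10:128270248-128270497, and its ISRE letters, on the minus strand, lie at bases -222 to -213 from the RefSeq start. That window ends at 128270547, before the GENCODE start of Stat2 at 128270559, so the letters lie farther from the latter. The Irf1 stretch is chr11:53769764-53770013, with GAS letters at -90 to -82. The Irf2 stretch is chr8:46739495-46739731, with ISRE letters at -241 to -232 and GAS letters at -224 to -216. Of the 250 upstream bases of the Irf2 window, 34 lie in exons of Gm16675 or Irf2. The Ifnar2 stretch is chr16:91372533-91372782, with GAS letters at -214 to -206. In Ifnar1 the GAS letters run across the RefSeq start site, from -5 to 4. They lie wholly before the GENCODE start of Ifnar1 at 91485238.

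The receptor chains for type I interferon were unequal. Ifnar1, the signalling chain that holds the kinase TYK2 (plus strand of chromosome 16, 91485238 to 91507441, mm10), had 1387 counts, or 65.2 CPM (61.8 to 68.7) and 11 CPM per kb. Ifnar2, the chain with the higher affinity for ligand, which holds JAK1 (plus strand of chromosome 16, 91372783 to 91405589), had 497 counts, or 23.4 CPM (21.4 to 25.5) and 7.02 CPM per kb. Per kilobase of all exons Ifnar1 had 1.56 times the counts of Ifnar2 (1.41 to 1.74). With the longest coding transcript that ratio was 2.18 (1.96 to 2.41). Ifnar2 was thus the lower chain under each length, at the 46.2nd percentile of genes per kilobase, while Ifnar1 stood at the 58.7th.

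The ligand-binding chain for type II interferon was the highest of the 3 receptor genes. Ifngr1 (plus strand of chromosome 10, 19591949 to 19610229) had 1587 counts, or 74.6 CPM (71 to 78.4) and 26.2 CPM per kb, at the 80.6th percentile. Its partner Ifngr2, which starts signalling after ligand binding, had 1517 counts, or 71.3 CPM (67.8 to 75) and 18.9 CPM per kb. The ratio of their counts was 1.05 with an interval that held 1 (0.974 to 1.12), but Ifngr1 is shorter and had 1.38 times the counts of Ifngr2 per kilobase (1.29 to 1.49). Ifngr1 also had 2.39 times the counts of Ifnar1 per kilobase (2.22 to 2.57).

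Ifnar2, Il10rb, Ifnar1 and Ifngr2 lie in this order on the plus strand within 193 kb of chromosome 16, while Ifngr1 is on chromosome 10. Il10rb, a chain shared by the receptors for interleukin-10 and type III interferon, starts 33.4 kb after the start of Ifnar2 and had 361 counts, or 17 CPM (15.3 to 18.8) and 4.46 CPM per kb. Ifnlr1, the other chain of the type III receptor, had 545 counts and 6.13 CPM per kb. Per kilobase of all exons the level in the cluster was lowest for Il10rb and highest for Ifngr2, as the plot of the cluster shows, but with the longest coding transcript Il10rb stood at 9.17 and Ifnar2 at 7.67 CPM per kb. An annotated gene joining exons of Ifnar2 and Il10rb, Gm21970, covers 9.46% of the exon bases of Ifnar2 and 14.9% of those of Il10rb. Gm21970 was listed at 0.

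**Figure D2:**
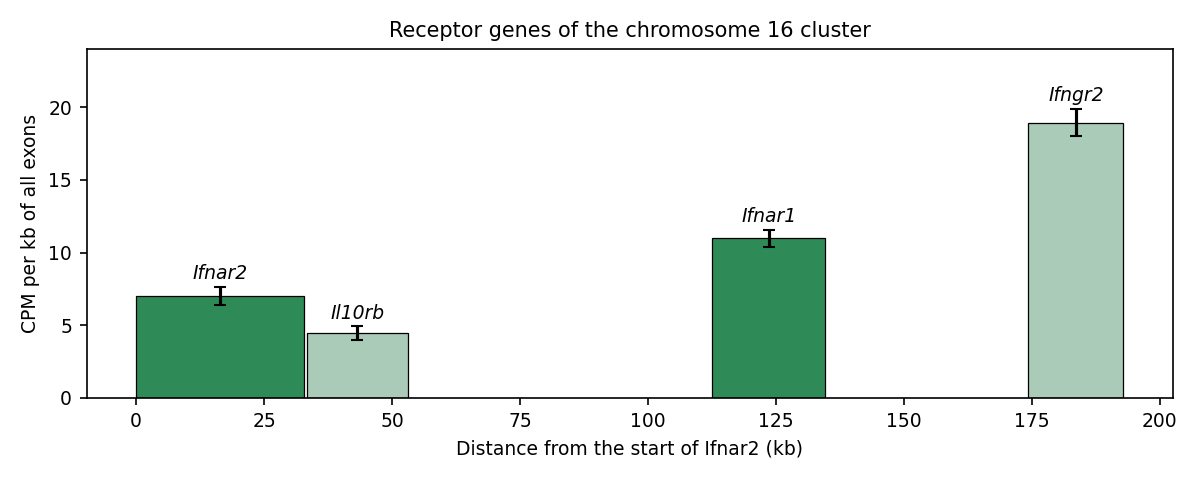
Receptor genes of the chromosome 16 cluster, placed by distance in kb from the start of Ifnar2. Bar width is the annotated gene, bar height the level in CPM per kb of all exons, error bars the exact Poisson 95% intervals, and dark bars Ifnar2 and Ifnar1. Ifngr2 is the highest at 18.9 and Il10rb the lowest at 4.46 CPM per kb.

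The Janus kinases that these receptors hold differed among themselves. Jak1, used by both interferon receptors, had 3274 counts and 21.3 CPM per kb, and Jak2, used by the type II receptor, had 2524 counts and 23.6 CPM per kb. Tyk2, the partner of IFNAR1, had 876 counts and 6 CPM per kb, below the median gene. In CPM it was above the median gene, at 41.2 against 37.9. Jak3, known from blood cells, had 259 counts and 2.28 CPM per kb.

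Of the 2 members that take part in ISGF3, Irf9 had the higher level per kilobase. Stat2, the STAT that gives ISGF3 its main activating domain (plus strand of chromosome 10, 128270559 to 128292849), had 2397 counts, or 113 CPM (108 to 117) and 19 CPM per kb, at the 73.2nd percentile. Irf9, the subunit that reads the ISRE (plus strand of chromosome 14, 55603571 to 55610030), had 3318 counts, or 156 CPM (151 to 161) and 29 CPM per kb, at the 82.7th percentile. Stat2 had 0.657 times the counts of Irf9 per kilobase (0.623 to 0.692), or 0.486 times (0.461 to 0.513) with the longest coding transcript. Exons of Rnf31, on the same strand, overlap 2.28% of the exon bases of Irf9, and Rnf31 had 1126 counts. Stat2 stayed below Irf9 under all 3 lengths, as the plot of ratios shows.

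**Figure D3:**
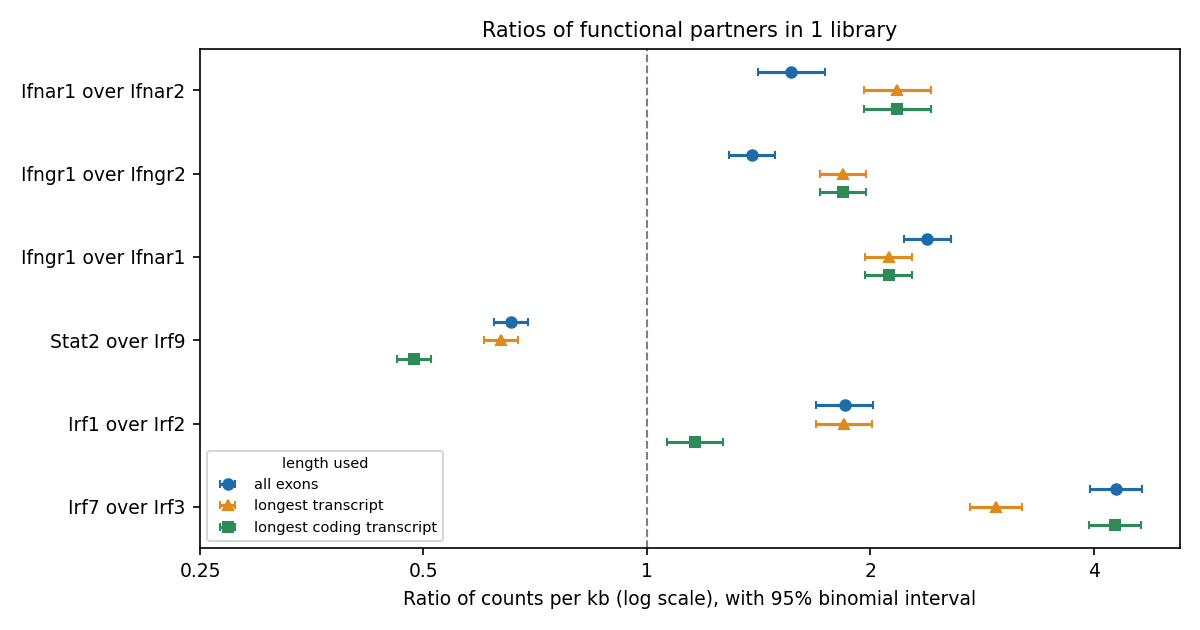
Ratios of counts per kb for 6 pairs of functional partners in 1 library, first-named gene over second, on a log axis. Points use the length of all exons, of the longest transcript or of the longest coding transcript, and bars are exact binomial 95% intervals for counting error. No pair crosses 1 when the length is changed, and Irf7 over Irf3 is the largest at 4.29 with all exons.

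Stat2 had more counts per kilobase than Stat5b, Stat6, Stat3 and Stat5a, STATs known mainly from cytokine signals other than interferon. Stat5b had 16.4, Stat6 15 and Stat3, the main carrier of interleukin-6 family signals, 9.99 CPM per kb. Stat5a had 1.81 CPM per kb and Stat4 was listed at 0. Of the 64-base windows cut from their transcripts, 8.2% for Stat5a and 9.01% for Stat5b also occur in other genes, so their counts are uncertain. These shares do not bound the error, since Stat5b had 1936 counts and Stat5a 275.

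Irf7 was the highest of the IRFs. This factor, known to amplify interferon production (minus strand of chromosome 7, 141262706 to 141266481), had 3410 counts, or 160.3 CPM (155 to 166) and 42.5 CPM per kb, at the 88.9th percentile. Irf3, which starts interferon production and is known to be made without prior stimulation (plus strand of chromosome 7, 44997648 to 45002848), had 725 counts, or 34.1 CPM (31.7 to 36.7) and 9.9 CPM per kb, at the 55.7th percentile. Per kilobase Irf7 had 4.29 times the counts of Irf3 (3.96 to 4.65), and 2.95 times with the longest transcript of any type. Irf7 has 13 annotated transcripts, which together cover the whole gene as exon, so its length of 3776 bases by all exons exceeds the 2237 bases of its longest coding transcript. At its edge, 45 of its exon bases lie in exons of Phrf1 on the other strand, which had 2775 counts. For Irf3 and Bcl2l12, also on opposite strands, 88 bases are shared, and Bcl2l12 had 187 counts. The strand setting of the counting is not given in the sources used here.

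Irf1 and Irf2 bind like sites, the first mainly as an activator and the second mainly as a repressor, and they had near-equal counts. Irf1 (plus strand of chromosome 11, 53770014 to 53778374) had 1031 counts, or 48.5 CPM (45.6 to 51.5) and 12.2 CPM per kb. Irf2 (plus strand of chromosome 8, 46739732 to 46847458) had 1039 counts, or 48.85 CPM (45.9 to 51.9) and 6.6 CPM per kb. The ratio of their counts was 0.992 (0.909 to 1.08), so their counts differed by less than counting error. Per kilobase Irf1 had 1.85 times the counts of Irf2 (1.69 to 2.01), but 1.16 times (1.06 to 1.27) with the longest coding transcripts of 2137 and 2497 bases. The size of this difference therefore depends on the length used, and with that coding length the interval held 1 (0.998 to 1.35) when counts were divided by 3.

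IRFs of other cell types were low or listed at 0. Irf5, known from myeloid cells, had 24 counts and 0.388 CPM per kb. The blood cell factors Irf4 and Irf8 were listed at 0. Genes of basic metabolism such as Atp5a1 and Uqcrc1 were also listed at 0, so a listing at 0 is not read as absence and no upper limit is given for it. The cofactors named for IRF2 were higher per kilobase than Irf2 itself, with Irf2bpl at 67.1, Irf2bp2 at 34.7 and Irf2bp1 at 18.6 CPM per kb of all exons. With the longest coding transcript Irf2bp1 was again at 18.6 but Irf2 was higher, at 19.6 CPM per kb. The acetyltransferase genes Ep300 and Crebbp, whose products serve many factors, stood at 28.4 and 5.88 CPM per kb.

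The genes at either end of the pathway were the interferons and the effectors that they are known to induce. Of 21 interferon genes, 18 were listed at 0, among them Ifng and all 13 interferon alpha genes of the list, and none had 10 counts. Ifnb1, the type I interferon that many cell types can make, had 8 counts (0.376 CPM, 0.162 to 0.741), and Ifnk and Ifnz had 6 and 2. Up to 53.1% of the 64-base windows of an interferon alpha gene, and 71.6% of those of Ifnz, also occur in other genes. The list of 20 interferon-stimulated effector genes was chosen with earlier results of these data known, and all 20 reached 10 counts. Their median was 50.4 CPM per kb, against 8.14 for all genes, and 18 exceeded the median gene. Among these 18, Oas1a and Ifit3 share 51.8% and 44.3% of such windows with other genes, so their counts are uncertain. Isg15, a ubiquitin-like modifier, stood at 796 CPM per kb, Cxcl10, a T cell chemokine, at 196, and Oasl1, of the oligoadenylate synthetase family, at 141. The lowest of them was Mx1, with 31 counts. The median of the 9 members, 12.2 CPM per kb, was below that of this list, but the levels overlapped, and no test of the difference was made. Irf7 exceeded 9 of the 20 effectors per kilobase, and each member exceeded at least 2 of them, Mx1 and the translation inhibitor Ifit2 at 5.71 CPM per kb.

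Sensors and adaptors that lead to IRF3 and IRF7 spread over much of the range of all genes. Of 17 sensor and adaptor genes, 15 reached 10 counts. The median of these was 7.97 CPM per kb, and they ran from the 7.16th percentile per kilobase for Tmem173 to the 84.3rd for Ddx58. Of the 15, 7 exceeded the median gene, a share like that of genes at large. The RNA sensors Ddx58 (RIG-I) and Ifih1 (MDA5) had 4701 and 3708 counts, or 31.4 and 21.4 CPM per kb. The adaptor Traf3 had 16.6 CPM per kb. Mavs, the adaptor of both RNA sensors, had 23.7 CPM per kb, and the kinase Tbk1, which phosphorylates IRF3, 18.5. The DNA-sensing pair was lower, with cGAS, listed as Mb21d1, at 4.82 CPM per kb and STING, listed as Tmem173, at 24 counts and 0.412 CPM per kb. Mavs, Tbk1, Mb21d1 and Tmem173 were picked after their values were seen. All 14 genes of inhibitors reached 10 counts. Their median was 13.1 CPM per kb, and 9 exceeded the median gene. Usp18, an interferon-induced protein that blocks IFNAR2, stood at 88.3 CPM per kb with 5242 counts, or 12.6 times the counts of Ifnar2 per kilobase. The STAT corepressor Trim28 stood at 83.9 and the phosphatase Ptpn11 at 37.4 CPM per kb. The plot of pathway levels places the members among these lists.

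**Figure D4:**
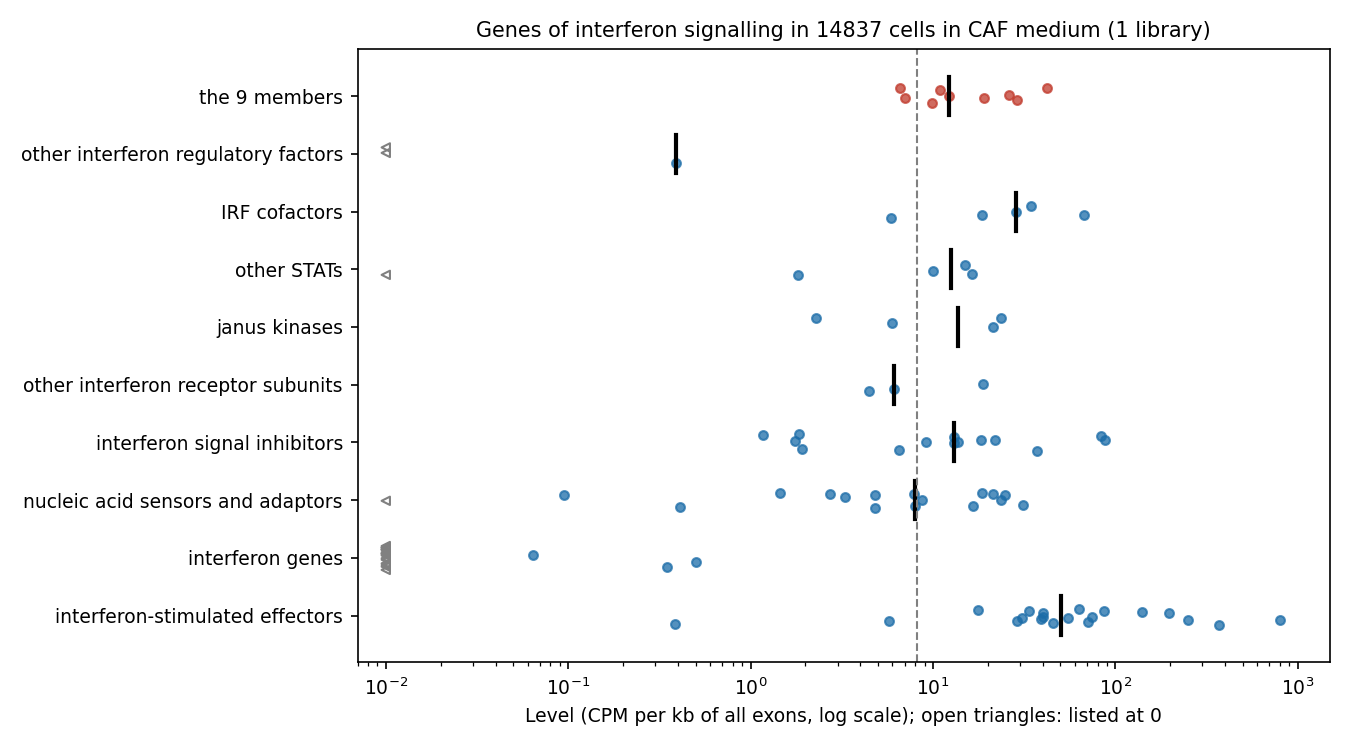
Levels of the 9 members and of 9 lists of interferon signalling genes in 1 library, in CPM per kb of all exons on a log axis. Each point is a gene, black bars are medians of genes with at least 10 counts, triangles are genes listed at 0, and the dashed line is the median gene at 8.14. The effector list has a median of 50.4, the 9 members 12.2, and 18 of 21 interferon genes are listed at 0.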

How the data were processed

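RNA of 14837 cells was sequenced with 1 library per medium, from 2 ug of total RNA per the labels. HISAT2 2.1.0, StringTie and the build mm10 stand in the submitters' processing notes, with no role given. The authors deposited whole-number counts per gene symbol, per the file's values. The counting tool, strand setting and handling of reads with several matches were not given in the sources used here. 1 value column matched neither library's labels and was not used. No group comparison, test or adjusted p was therefore possible.

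Counts were divided by the total of 21269197 to give CPM. Intervals are exact Poisson for levels and exact binomial for ratios of counts (95%, counting error only, checked on simulated counts). Reads can be copies of 1 molecule, so intervals may be too narrow. Lengths, positions and overlaps came from GENCODE M21 on mm10, and 99.5% of genes with at least 10 counts had a length. Shared windows are 64-base windows of the longest transcript, every 16 bases, found exactly in transcripts of genes elsewhere. Alternatives changed the total, the length, the minimum count and the interval. Members, pairs and lists were chosen with earlier results of these data known. Named are all members, their partners, whole lists of up to 6 genes and the 3 highest in CPM of longer lists. Some genes that meet this rule are left out. Computation used pandas 2.3.3 and scipy 1.17.1, with numpy 2.4.6, under Python 3.11.15, and figures were drawn with matplotlib 3.10.9.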

Additional observations from a re-analysis of the deposited data

How the results depend on the processing

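No paired analysis was possible because the labels give no replicate numbers and 1 library was used, and no replicate could be left out. The number of members above the median gene per kilobase was 7 with all exons and 8 with either of the other lengths. It was 6 per kilobase and 5 in CPM with a minimum of 100 counts, and 9 on both scales with no minimum. Leaving the 100 highest entries out of the total raised the median member to 75.3 CPM, and leaving out mitochondrial entries moved none of the 9 levels beyond its interval. With the longest transcript or the longest coding transcript as length, Ifnar1 over Ifnar2 came to 2.18, Ifngr1 over Ifngr2 to 1.84 and Ifngr1 over Ifnar1 to 2.12. Irf7 over Irf3 came to 2.95 with the longest transcript only. With the longest coding transcript, Stat2 over Irf9 came to 0.486 and Irf1 over Irf2 to 1.16. The coding length was chosen after seeing the data. No pair changed direction. With intervals from counts divided by 3, all 6 stayed on their side of 1 by all exons, but with the longest coding transcript the interval of Irf1 over Irf2 held 1 (0.998 to 1.35), and the other 5 did not. That last combination and the minimums per kilobase were also added after seeing the data. That divisor was tried because 35.6% of counts of at least 10 and under 300 were multiples of 3, against 33.1% of the whole numbers in that range. With no minimum count the median gene fell to 0.94 CPM, and the genes above it came to 3 other receptor subunits, 1 other IRF, 14 inhibitors and 15 sensors and adaptors. With 1 library, spread between cultures was not measured. Differences between genes of the size of their counting intervals are therefore not firm, and larger ones were not tested across cultures.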

Other observations

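Relatives of the interferon receptor chains, looked at after the members' values were seen, differed widely. The class II cytokine receptor family, to which these chains belong, also holds tissue factor, F3, the starter of blood clotting, which had 5551 counts, or 261 CPM (254 to 268) and 103 CPM per kb, at the 96.4th percentile. The interleukin-22 receptor chain Il22ra1 had 156 counts and Il20rb 86, while Il10ra, Il20ra and Il22ra2 were listed at 0.

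Eif4ebp1 and Eif4ebp2, translation repressors known in mouse cells to restrain IRF7 synthesis, had 6085 and 2723 counts, or 130.3 and 22.1 CPM per kb, against 42.5 CPM per kb for Irf7. RNA levels do not show how much IRF7 protein was made. The STAT partner Nmi had 630 counts and 14.8 CPM per kb, and Batf2, an interferon-induced partner of IRF1, had 2 counts.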
